A study of Mus musculus with 7 samples.

Results

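The Cyp2d genes encode cytochrome P450 enzymes of subfamily 2D, and 9 of them, listed by name (Cyp2d9, Cyp2d10, Cyp2d11, Cyp2d12, Cyp2d13, Cyp2d22, Cyp2d26, Cyp2d34 and Cyp2d40), were followed in mouse liver. Of these 9 names, 8 had a row among the 54532 rows of the expression table, and Cyp2d13 had none. Liver RNA of male C57BL/6 mice aged 30 weeks was sequenced, 1 library per mouse. The CR group (n = 4) was held at 30% calorie restriction, begun at 12 weeks of age, and the AL group (n = 3) ate ad libitum. CR mice lived in separate cages and AL mice were housed in groups, so that diet, housing and the daily timing of food cannot be told apart. All mice were of wild-type C57BL/6 background, with no allele or agent named besides the diet.

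Cytochrome P450 enzymes of the endoplasmic reticulum of hepatocytes insert an oxygen atom into drugs, steroids and other lipophilic substrates, with electrons passed on by cytochrome P450 reductase and, in part, cytochrome b5. The 2D subfamily is a single functional gene in humans, CYP2D6, well known for its part in the clearance of many drugs, whereas in mice it is a tandem array of genes and pseudogenes. Mouse Cyp2d9 encodes a steroid 16 alpha-hydroxylase of testosterone that is known as a male-predominant liver gene under the control of pulsatile growth hormone.

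All 8 members with a row lay on chromosome 15 of GRCm38, between the neighbouring genes Ndufa6 and Tcf20, and no other protein-coding gene lay between them. In order along the chromosome these were Cyp2d22 (chr15:82370527-82380260, minus strand), Cyp2d11 (chr15:82389154-82394022, minus), Cyp2d10 (chr15:82402846-82407195, minus), Cyp2d9 (chr15:82433437-82456845, plus), Cyp2d12 (chr15:82555072-82560403, plus), Cyp2d34 (chr15:82615965-82620946, minus), Cyp2d40 (chr15:82759833-82764183, minus) and Cyp2d26 (chr15:82790101-82794294, minus). The coding sequences of GENCODE M21 were close copies of each other in one set of members. Cyp2d9 shared 92.5% of aligned bases with Cyp2d10, 93.3% with Cyp2d11, 92.1% with Cyp2d12 and 89.6% with Cyp2d34. Cyp2d26 and Cyp2d22 stood further away, with 81.2% and 78.0% of aligned bases shared with Cyp2d9 and 78.1% with each other. The coding model of Cyp2d40 held 1014 bases, against 1500 to 1512 in the other 7 members, so that its identity of 57.1% with Cyp2d9 counts the missing stretch as different.

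Promoter sequence was given in RefSeq (GRCm38.p6) for 5 of the 8 members, and the stretch from 150 to 51 bases before the annotated start is shown for 4 of them, because the genes compared below as nearest relatives differed there. The RefSeq start of Cyp2d9 lay inside the span of its row given above, so its window is not upstream of that row's first base. Capitals mark the letters TTCCGG, which read CCGGAA on the other strand, the core that ETS factors such as GABP recognise.
Cyp2d9, chr15:82452227-82452326, plus strand: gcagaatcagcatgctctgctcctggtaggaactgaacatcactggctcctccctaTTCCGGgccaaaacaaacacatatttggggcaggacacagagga
Cyp2d10, chr15:82407245-82407344, minus strand: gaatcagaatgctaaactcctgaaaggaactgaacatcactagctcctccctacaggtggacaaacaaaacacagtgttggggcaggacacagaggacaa
Cyp2d11, chr15:82394073-82394172, minus strand: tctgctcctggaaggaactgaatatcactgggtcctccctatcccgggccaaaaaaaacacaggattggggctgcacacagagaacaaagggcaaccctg
Cyp2d26, chr15:82794296-82794395, minus strand: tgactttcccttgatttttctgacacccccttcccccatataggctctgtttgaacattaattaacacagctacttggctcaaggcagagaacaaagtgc

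In these windows Cyp2d9 and Cyp2d10 were identical at 76.7% of 103 alignment columns. Cyp2d9 and Cyp2d11 were identical at 64.3% of 115 columns, and Cyp2d9 and Cyp2d26 at 49.1% of 110. Gaps count as different here, also those at the ends where windows set by different annotated starts are offset. These shares therefore do not rank the promoters by likeness. Over the whole promoter entries, which also reach further upstream and past the start, CCGGAA on either strand was found in Cyp2d9 alone among the 5 members, from 94 to 89 bases before the start. Of all 32851 mouse promoters of that length, 14.9% held these letters. The nuclear receptor half-site AGGTCA, also searched on both strands, was found in Cyp2d40 alone, from 32 to 37 bases after the start, against 16.3% of all promoters. The STAT5 letters TTCNNNGAA, present in 8.30% of all promoters, were in none of the 5 windows. These letters were counted as text and no binding was measured.

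Read totals in genes ran from 16486665 to 19900806 in CR livers and from 15641740 to 16101631 in AL livers. A single read in a gene of 2 kb is worth 0.0250 to 0.0321 FPKM at these depths. Mitochondrial genes held 5.62% to 8.09% of reads in CR livers, against 3.92% to 4.85% in AL livers. The summed FPKM of 8 hepatocyte markers was 47014 to 51316 in CR livers and 21904 to 36668 in AL livers, mostly Alb, and 1 of the 8 rose, 1 fell and 6 did not pass the test. AL replicate 3 stood apart, with Alb at 13855 FPKM against 24725 and 22643 in AL replicates 1 and 2. Kidney, another organ rich in P450s, left almost no trace, since the summed FPKM of its 3 markers reached 0.0211 in CR livers and 0.0232 in AL livers at most and Slc12a1 and Kap were at 0 in every library. Of the 3 red blood cell markers, 2 rose and 1 fell, with a summed level of 232 to 359 FPKM in CR livers and 146 to 185 FPKM in AL livers. Of the 3 fat cell markers, 1 (Cfd) fell, with a summed level of 0 to 0.504 FPKM in CR livers and 3.41 to 6.26 FPKM in AL livers, and of the 3 pancreas markers, 1 fell, with a summed level of 1.62 to 2.41 FPKM in CR livers and 6.43 to 13.4 FPKM in AL livers and the other 2 at 0. Of 6 Kupffer cell markers 1 rose (summed level 58.4 to 188 FPKM in CR livers and 102 to 173 FPKM in AL livers), and of 6 stellate cell markers 1 fell (30.004 to 67.2 FPKM in CR livers and 29.98 to 48.1 FPKM in AL livers). Among the tested markers of endothelial cells, bile duct cells, lymphocytes and neutrophils, 2 had an unadjusted p under 0.05 and did not pass after adjustment, Clec4g (limma adjusted p = 0.0767) and Sox9 (adjusted p = 0.0511), and the others did not pass. The part of these differences in the values of the Cyp2d genes was not tested, and in whole liver fewer cells of a type and less RNA per cell cannot be told apart.

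Under CR the members of the family moved in different directions. Cyp2d9 and Cyp2d40 fell, Cyp2d22 rose, and Cyp2d10, Cyp2d11 and Cyp2d26 did not pass the test, while Cyp2d12 and Cyp2d34 lay below the filter of 0.5 FPKM in 3 libraries and were not tested. Of the 6 members tested, 1 thus rose and 2 fell (limma, adjusted p under 0.05), beside 11.3% of all 12699 genes tested that rose and 10.2% that fell. The median log2 fold change of the 6 members was 0.10, against -0.0019 for all genes tested. Fold changes here are differences of log2(FPKM + 0.1), CR over AL.

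**Figure D1:**
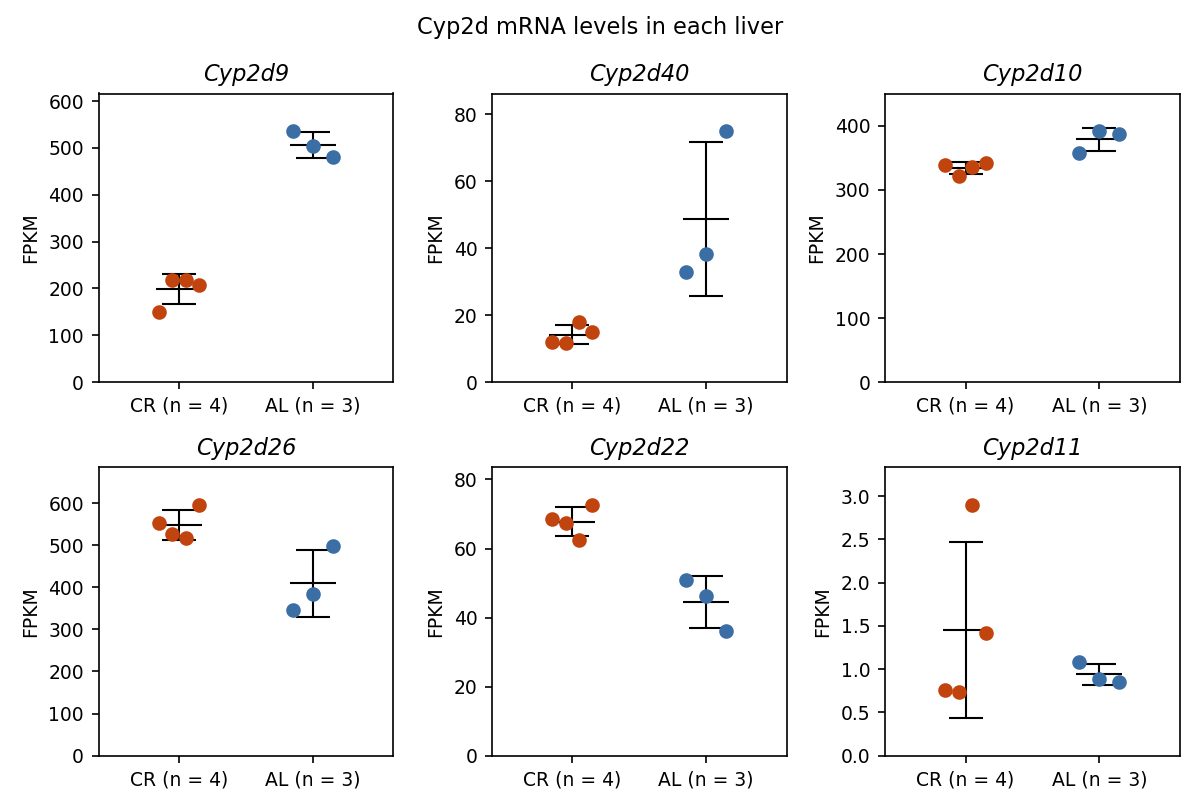
FPKM of the 6 tested Cyp2d genes in each liver, with CR livers (n = 4) left of AL livers (n = 3) and the mean ± SD in black, on an axis starting at 0 in each panel. The CR livers lay below every AL liver for Cyp2d9, Cyp2d40 and Cyp2d10, of which Cyp2d10 did not pass the test. They lay above every AL liver for Cyp2d22 and for Cyp2d26, which did not pass. The groups overlapped for Cyp2d11. How many of all genes tested show no overlap was not counted.

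Cyp2d9, the testosterone 16 alpha-hydroxylase, had 151, 218, 217 and 206 FPKM in CR livers, against 536, 504 and 481 FPKM in AL livers. Every CR liver lay below every AL liver, and CR replicate 1 was the lowest of all. The mean was 198 ± 32.0 FPKM (SD, n = 4) in CR livers and 507 ± 27.7 FPKM (SD, n = 3) in AL livers, so that the CR mean was 0.391 of the AL mean. The log2 fold change was -1.37 (SE 0.15, 95% interval -1.72 to -1.02, limma adjusted p = 0.00118). It rested on 7956 to 10983 reads per library in CR livers and 19912 to 23190 in AL livers, and leaving out each library in turn gave -1.42 to -1.24.

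Cyp2d10, one of the nearest relatives of Cyp2d9 by coding sequence, differed little between the groups. It had 339, 321, 336 and 341 FPKM in CR livers, against 358, 392 and 387 FPKM in AL livers. The groups did not overlap, with means of 335 ± 9.06 FPKM (SD, n = 4) in CR livers and 379 ± 18.3 FPKM (SD, n = 3) in AL livers. The log2 fold change of -0.18 (SE 0.10, 95% interval -0.40 to 0.05) did not pass the test (limma adjusted p = 0.229). Its values were also the steadiest of the family, with a coefficient of variation of 2.71% among CR livers and 4.84% among AL livers. The ratio of Cyp2d9 to Cyp2d10 FPKM was 0.444 to 0.679 in CR livers and 1.24 to 1.497 in AL livers.

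The other close relatives of Cyp2d9 were hardly transcribed. Cyp2d11 had 0.760, 0.730, 2.90 and 1.41 FPKM in CR livers, against 1.08, 0.889 and 0.847 FPKM in AL livers. The groups overlapped and CR replicate 3 held the highest value, on 79 reads. The log2 fold change of 0.38 (SE 0.44, 95% interval -0.64 to 1.39, limma adjusted p = 0.580) turned to -0.011 without that library. Cyp2d12 had 3, 3, 7 and 4 reads in CR livers and 1, 5 and 15 reads in AL livers, which is 0.0389 to 0.105 FPKM in CR livers and 0.0158 to 0.248 FPKM in AL livers. Cyp2d34 had 0 reads in each CR liver, which allows up to 3 reads or 0.0540 to 0.0660 FPKM per library, and 2, 1 and 1 reads in AL livers. Counts this low do not separate the groups.

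Cyp2d40, a member with a shorter coding model, had 12.1, 11.7, 18.0 and 15.1 FPKM in CR livers, against 32.9, 38.4 and 75.0 FPKM in AL livers. The groups did not overlap, and AL replicate 3 had about the level of the other AL livers added together. The mean was 14.2 ± 2.95 FPKM (SD, n = 4) in CR livers and 48.7 ± 22.9 FPKM (SD, n = 3) in AL livers, a log2 fold change of -1.69 (SE 0.29, 95% interval -2.37 to -1.02, limma adjusted p = 0.00701). Without AL replicate 3 it was -1.34, and still passed the test.

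Cyp2d22 and Cyp2d26 lay higher in CR livers. Cyp2d22, which is often set beside human CYP2D6, had 68.5, 67.4, 62.5 and 72.7 FPKM in CR livers, against 50.8, 46.3 and 36.1 FPKM in AL livers. Every CR liver lay above every AL liver. The mean was 67.8 ± 4.21 FPKM (SD, n = 4) in CR livers and 44.4 ± 7.51 FPKM (SD, n = 3) in AL livers, a log2 fold change of 0.62 (SE 0.13, 95% interval 0.31 to 0.93, limma adjusted p = 0.0164). Without AL replicate 2 the adjusted p was 0.0510, so that the call was narrowly lost.

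Cyp2d26 had 552, 526, 518 and 596 FPKM in CR livers, against 347, 384 and 499 FPKM in AL livers. All CR livers lay above all AL livers, and AL replicate 3 came closest to the CR livers. The mean was 548 ± 35.4 FPKM (SD, n = 4) in CR livers and 410 ± 79.3 FPKM (SD, n = 3) in AL livers. The log2 fold change of 0.43 (SE 0.15, 95% interval 0.10 to 0.77) did not pass the test (limma adjusted p = 0.0702). It was 0.58 without AL replicate 3 (adjusted p = 0.0145) and passed under quantile normalization as well (adjusted p = 0.0350).

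The order of the members by FPKM differed between the groups. FPKM is per kilobase of the row, whose length was 2658 bases for Cyp2d9, 1648 for Cyp2d10 and 3909 for Cyp2d22. Order, ratios and shares between members therefore depend on these lengths. In reads, Cyp2d9 (7956 to 10983) and Cyp2d10 (8667 to 11265) overlapped in CR livers. By FPKM the order in CR livers ran Cyp2d26, Cyp2d10, Cyp2d9, Cyp2d22, Cyp2d40 and Cyp2d11, and no neighbours in that order had overlapping FPKM ranges. In AL livers it ran Cyp2d9, Cyp2d26, Cyp2d10, Cyp2d40, Cyp2d22 and Cyp2d11 by mean FPKM. There the ranges of Cyp2d9 and Cyp2d26, of Cyp2d26 and Cyp2d10, and of Cyp2d40 and Cyp2d22 overlapped, so that only the wide steps of that order stood clear of the spread.

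The summed FPKM of the 8 members was 1123 to 1234 in CR livers and 1325 to 1478 in AL livers, with means of 1164 ± 48.1 in CR livers (SD, n = 4) and 1389 ± 79.6 in AL livers (SD, n = 3). Without Cyp2d26, the member of the highest mean over all livers, the sum was 571 to 637 FPKM in CR livers and 978 to 981 FPKM in AL livers. Cyp2d26 made up 47.1% ± 2.02 (SD, n = 4) of the sum in CR livers and 29.3% ± 3.93 (SD, n = 3) in AL livers. Cyp2d9 made up 17.0% ± 2.60 (SD, n = 4) in CR livers and 36.6% ± 3.97 (SD, n = 3) in AL livers. Cyp2d26 held the largest share in each CR liver and in AL replicate 3, and Cyp2d9 in AL replicates 1 and 2. Cyp2d10 held about the same share in both groups, 28.8% ± 1.14 in CR livers (SD, n = 4) and 27.3% ± 1.30 in AL livers (SD, n = 3). Cyp2d22 made up 5.82% in CR livers and 3.22% in AL livers, and Cyp2d40 made up 1.22% in CR livers and 3.45% in AL livers. In reads, the members held 0.223% to 0.254% of all reads in genes in CR livers and 0.295% to 0.308% in AL livers.

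**Figure D2:**
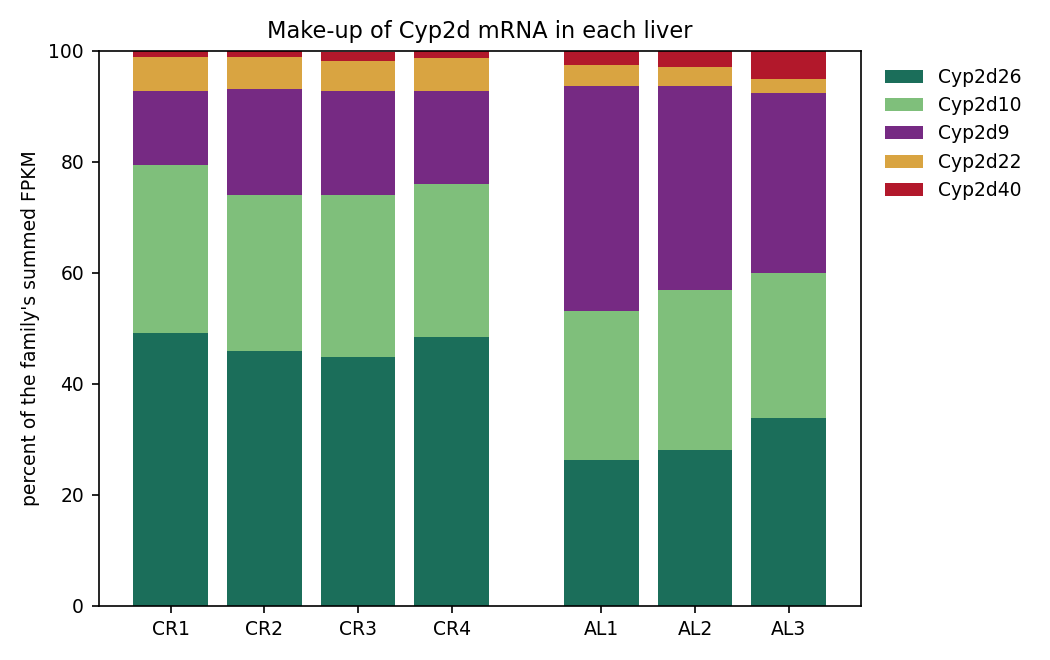
Share of each Cyp2d gene in the family's summed FPKM, 1 stacked bar per liver, CR livers left and AL livers right, in percent. Cyp2d26 was the largest block in each CR liver (44.8% to 49.1%), and Cyp2d9 was the largest in AL replicates 1 and 2 (40.4% and 36.9%) and second to Cyp2d26 in AL replicate 3 (32.5% and 33.7%).

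Rows of Cyp2d pseudogenes, which carry P450-like sequence without an intact coding frame, lay among the genes. Of 10 such rows, 5 passed the filter. Cyp2d36-ps, Cyp2d37-ps and Cyp2d38-ps fell, Cyp2d41-ps did not pass the test, and Cyp2d35-ps was called lower but passed the filter only through the AL livers, where it is high, and is described apart. For comparison, 10.2% of all genes tested fell. Cyp2d36-ps had 1.16, 0.581, 1.03 and 1.22 FPKM in CR livers, against 9.05, 5.92 and 13.4 FPKM in AL livers. Every CR liver lay far below the AL livers, and the log2 fold change of -3.09 (SE 0.32, limma adjusted p = 0.000902) was the largest in size among the tested Cyp2d rows. Cyp2d37-ps had 17.1, 16.2, 12.0 and 14.7 FPKM in CR livers, against 42.6, 51.9 and 76.2 FPKM in AL livers (log2 fold change -1.89, SE 0.21, limma adjusted p = 0.00119). Cyp2d38-ps, its neighbour, had 12.4, 10.5, 7.55 and 9.45 FPKM in CR livers, against 31.7, 39.7 and 56.3 FPKM in AL livers (log2 fold change -2.06, SE 0.23, limma adjusted p = 0.00115). Both pseudogenes were transcribed at about the level of Cyp2d40, and their ratio to each other was 1.38 to 1.59 in CR livers and 1.31 to 1.35 in AL livers.

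Cyp2d35-ps was near the filter, with 0.117 to 0.405 FPKM in CR livers and 0.552 to 1.503 FPKM in AL livers. Its log2 fold change of -1.86 (limma adjusted p = 0.0242) lost the call without CR replicate 3, CR replicate 4, AL replicate 1 or AL replicate 3 (adjusted p 0.0507 to 0.0920). Cyp2d41-ps had 1.68, 1.95, 1.94 and 1.13 FPKM in CR livers, against 2.12, 3.56 and 11.1 FPKM in AL livers. Its log2 fold change of -1.37 (SE 0.50, limma adjusted p = 0.0892) rested on AL replicate 3, without which it was -0.72, and it passed without AL replicate 1 (-1.88, adjusted p = 0.0405). The other 5 rows were Cyp2d32-ps, with 0 reads in each CR liver and 1 to 4 in AL livers, Cyp2d39-ps, with 1 to 3 reads in CR livers and 0 to 7 in AL livers, and Cyp2d33-ps, Cyp2d34-ps and Cyp2d67-ps, with 0 reads in every library. The summed FPKM of all 10 rows was 22.9 to 32.8 in CR livers and 87.4 to 159 in AL livers.

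Cyp2d13 is annotated in RefSeq as a transcribed pseudogene at chr15:82636750-82642045, and no value can be given for it. A pair of other rows, named here after their values were seen, overlapped that span. Gm27463, a row of 57 bases annotated as a microRNA, had 98.1, 74.0, 47.1 and 85.9 FPKM in CR livers, against 231, 295 and 455 FPKM in AL livers (log2 fold change -2.09, SE 0.30, limma adjusted p = 0.00366). Because the row is so short, these values rest on 46 to 111 reads in CR livers and 214 to 404 reads in AL livers. Its 57 bases matched the Cyp2d40 transcript at 98.2% of positions and the Cyp2d9 and Cyp2d11 transcripts at 93.0%, so reads from other Cyp2d genes cannot be told apart from its own by annotation alone. Of the 10 microRNA rows between the outermost members, the other 9 had 0 reads in all libraries. Most of those 9 lay inside a Cyp2d row on the same strand, such as Gm27622 in Cyp2d9, whereas Gm27463 overlapped no row on its strand. How reads in overlapping rows were counted is not known here, so these counts do not single out Gm27463. Gm49431, an antisense row that overlaps Cyp2d13 and Cyp2d35-ps on the opposite strand, had 1.72 ± 0.802 FPKM in CR livers (SD, n = 4) and 10.3 ± 3.61 FPKM in AL livers (SD, n = 3), a log2 fold change of -2.55 (limma adjusted p = 0.00295). The sources used here do not say whether the counting used strand, so its reads and those of its antisense partners cannot be told apart.

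**Figure D3:**
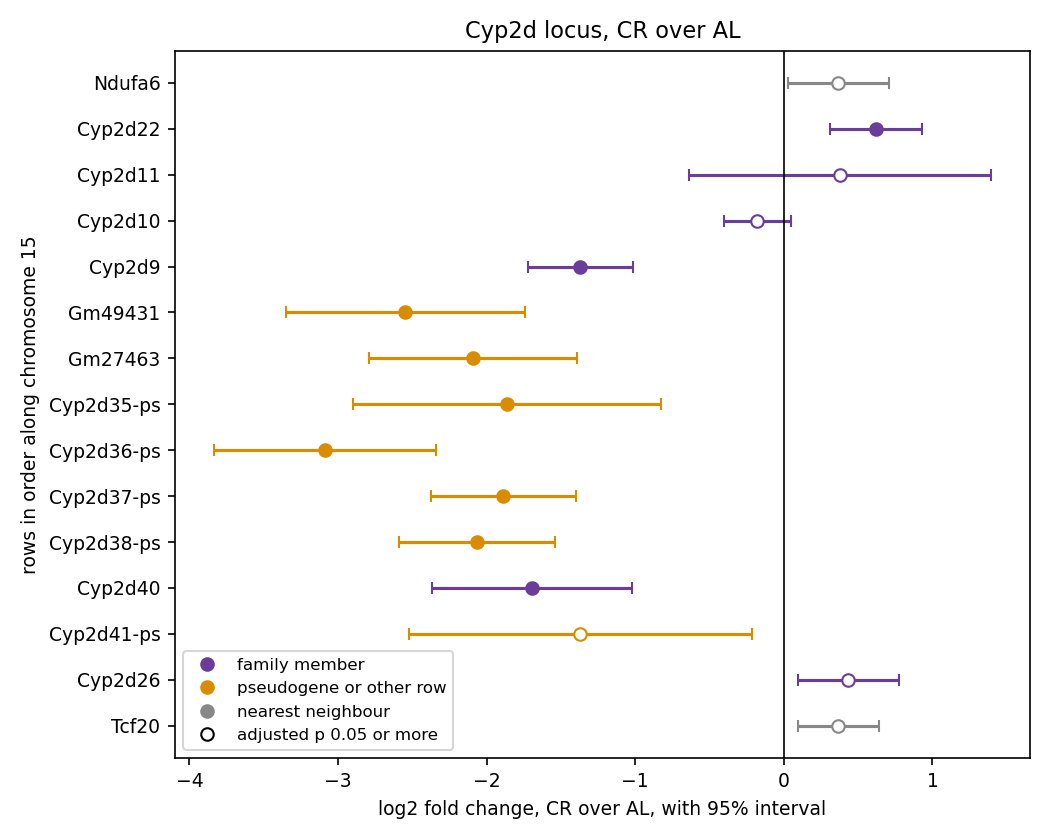
Log2 fold change, CR over AL, with its 95% interval for each tested Cyp2d row, the rows overlapping Cyp2d13 and the nearest neighbouring genes, from top to bottom in order along chromosome 15, filled where the adjusted p was under 0.05. The plotted rows from Cyp2d9 to Cyp2d41-ps lay left of 0, from -1.37 to -3.09, whereas Cyp2d22 (0.62) and Cyp2d26 (0.43) at the ends of the array lay right of it.

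Along the chromosome the Cyp2d rows that fell lay next to each other, from Cyp2d9 to Cyp2d40, with no tested Cyp2d gene or pseudogene between them that did not fall, Cyp2d35-ps with the limit given above included. This order was seen after the values were known. Within that stretch the AL livers did not move together: AL replicate 3 was the highest AL liver for Cyp2d40, Cyp2d36-ps, Cyp2d37-ps, Cyp2d38-ps and Gm27463, and the lowest for Cyp2d9. The coefficient of variation among AL livers was 46.9% for Cyp2d40 and 30.4% for Cyp2d37-ps, against 5.47% for Cyp2d9. Among CR livers it was 20.7%, 14.9% and 16.2% for the same rows.

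**Figure D4:**
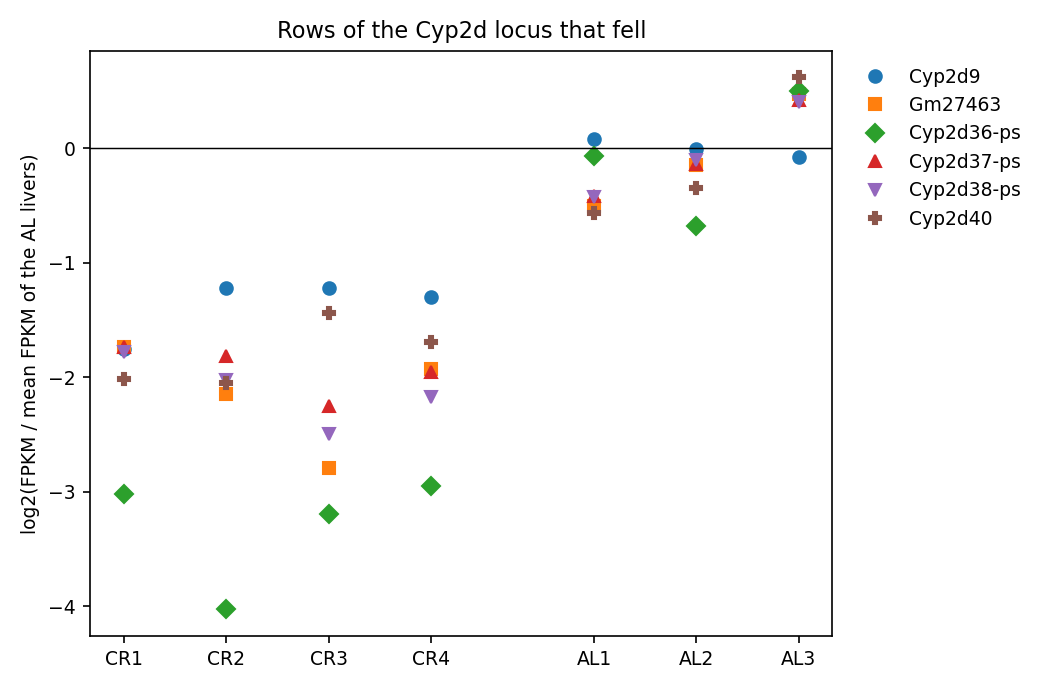
Level of 6 rows of the locus that fell, as log2 of FPKM over the mean FPKM of the AL livers, in each CR liver (left) and AL liver (right), with 1 symbol per row. All CR points lay more than 1 unit below the AL mean, Cyp2d36-ps lowest in each CR liver, and in AL replicate 3 Cyp2d9 alone of these rows lay below the AL mean (481 FPKM, against a mean of 507 FPKM).

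Genes with near-identical copies can exchange reads. Of the 100-base words in their GENCODE transcripts, 12.2% in Cyp2d11, 11.7% in Cyp2d10 and 7.91% in Cyp2d9 occurred in another gene as well, chiefly in each other and in pseudogenes. The share was 1.73% in Cyp2d12, 0.319% in Cyp2d26 and 0.143% in Cyp2d22, and no word of Cyp2d40, Cyp2d36-ps, Cyp2d37-ps or Cyp2d38-ps occurred elsewhere. The levels of Cyp2d9, Cyp2d10 and Cyp2d11 are therefore less certain than those of the other members, and the sources used here do not say how reads with several matches were treated. The nearest genes outside the array did not pass the test. Ndufa6, a subunit of respiratory complex I, had 60.0 ± 8.99 FPKM in CR livers and 46.3 ± 5.35 FPKM in AL livers (log2 fold change 0.37, limma adjusted p = 0.114), and Tcf20, a transcriptional regulator, had 5.15 ± 0.472 FPKM in CR livers and 3.97 ± 0.352 FPKM in AL livers (0.37, adjusted p = 0.0624). Among the 30 protein-coding genes within 500 kb of the array, 19 passed the filter, of which 2 rose, 3 fell and 14 did not pass. Of these 5 calls, 1 held in each fit that left out 1 library. Since 11.3% of all genes tested rose and 10.2% fell, the counts are not read as a result about the neighbours.

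A list of 7 electron donors of P450s, related genes and P450-associated proteins, not all of them electron carriers, was tested. Of the 7, 2 rose and 5 did not pass, while 11.3% of all genes tested rose. Por, the reductase that serves all microsomal P450s, had 186, 261, 345 and 319 FPKM in CR livers, against 106, 91.9 and 147 FPKM in AL livers. All CR livers lay above all AL livers (log2 fold change 1.26, SE 0.25, limma adjusted p = 0.0116), and without AL replicate 2 the adjusted p was 0.0512. Cyb5a, cytochrome b5, had 334 ± 19.4 FPKM in CR livers (SD, n = 4) and 251 ± 8.89 FPKM in AL livers (SD, n = 3), a log2 fold change of 0.41 (limma adjusted p = 0.0257). That call was lost without CR replicate 1, CR replicate 2, AL replicate 1 or AL replicate 2 (adjusted p 0.0550 to 0.0869). Pgrmc1, a heme-binding membrane protein that associates with P450s, had 661 ± 73.9 FPKM in CR livers (SD, n = 4) and 493 ± 57.1 FPKM in AL livers (SD, n = 3), with a log2 fold change of 0.42 (limma adjusted p = 0.0610).

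Of 16 listed regulators of Cyp2d genes or of sex-biased liver genes, all tested, 1 rose, 5 fell and 10 did not pass. The shares over all genes tested were 11.3% that rose and 10.2% that fell. Cux2, a repressor known from female mouse liver, had 5.15, 6.35, 5.99 and 4.14 FPKM in CR livers, against 0.0122, 0.0175 and 0.0191 FPKM in AL livers, where it rested on 2 to 3 reads (limma adjusted p = 3.02e-06). It passed the filter only through the CR livers. Stat5a, a transducer of growth hormone signals, fell (log2 fold change -0.73, limma adjusted p = 0.00755), and so did Cebpa, a hepatocyte factor (-0.54, adjusted p = 0.0140, lost without AL replicate 1 at 0.0528 or AL replicate 2 at 0.0525). The growth hormone receptor gene Ghr (-0.68, adjusted p = 0.0208), Bcl6 (-1.62, adjusted p = 0.0458) and Onecut1 (-1.81, adjusted p = 0.0449) made up the other calls. Ghr lost its call without CR replicate 2, AL replicate 1 or AL replicate 3, and Bcl6 and Onecut1 each lost theirs without any 1 of the CR livers or AL replicate 2. Hnf4a, a nuclear receptor that human CYP2D6 depends on, had 181 ± 28.7 FPKM in CR livers (SD, n = 4) and 186 ± 44.4 FPKM in AL livers (SD, n = 3), a log2 fold change of -0.03 (95% interval -0.48 to 0.43, limma adjusted p = 0.938). Stat5b (0.18, adjusted p = 0.324) and Gabpa, a subunit of GABP (0.37, adjusted p = 0.0650), did not pass.

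Cyp2d9 belongs to the genes that differ between the sexes in mouse liver, and lists of such genes were set beside it. All 22 male-biased genes listed fell, with log2 fold changes from -16.23 to -1.54, among them Mup7, a major urinary protein gene, which had 0 to 1 read in CR livers and 135031 to 158143 reads in AL livers. The log2 fold change of Cyp2d9 (-1.37) was smaller in size than each of these. Of 24 female-biased genes, 21 passed the filter, and 20 rose and 1 did not pass. Sult2a2, a sulfotransferase, had 471, 767, 351 and 363 FPKM in CR livers, against 0, 0.0794 and 0 FPKM in AL livers. The log2 fold changes of the 6 tested Cyp2d genes spanned -1.69 to 0.62.

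Among 40 other protein-coding Cyp2 genes, 28 passed the filter, and 17 rose, 4 fell and 7 did not pass. Their median log2 fold change was 1.46, beside 0.10 for the Cyp2d members. Over all genes tested, 11.3% rose and 10.2% fell. The 4 tested Cyp2a genes and the 3 tested Cyp2b genes all rose, and 8 of 13 tested Cyp2c genes did. The 3 Cyp2b genes, Cyp2a4 and Cyp2a22 lay below 0.5 FPKM in each AL liver. They passed the filter only through the CR livers, where they are high, so their rise is a description and not a test. Summed Cyp2a FPKM was 1743 to 2567 in CR livers and 256 to 316 in AL livers, and summed Cyp2b FPKM was 162 to 327 in CR livers and 0.0836 to 0.378 in AL livers. Summed Cyp2d FPKM therefore lay above summed Cyp2a FPKM in each AL liver and below it in each CR liver. Cyp2b9, a female-predominant form, had 148 ± 36.8 FPKM in CR livers (SD, n = 4) and 2 reads in all AL livers together. The 4 genes that fell were Cyp2u1 (-2.65), Cyp2j5 (-1.33), Cyp2f2 (-0.67) and Cyp2c67 (-0.65), with limma adjusted p from 0.00122 to 0.0369. Cyp2f2 lost its call in 5 and Cyp2c67 in 6 of the 7 fits that left out 1 library. Cyp2e1, the ethanol-inducible form and the most abundant of these mRNAs, had 2986 ± 615 FPKM in CR livers (SD, n = 4) and 2790 ± 277 FPKM in AL livers (SD, n = 3), and the groups overlapped (log2 fold change 0.08, limma adjusted p = 0.791).

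**Figure D5:**
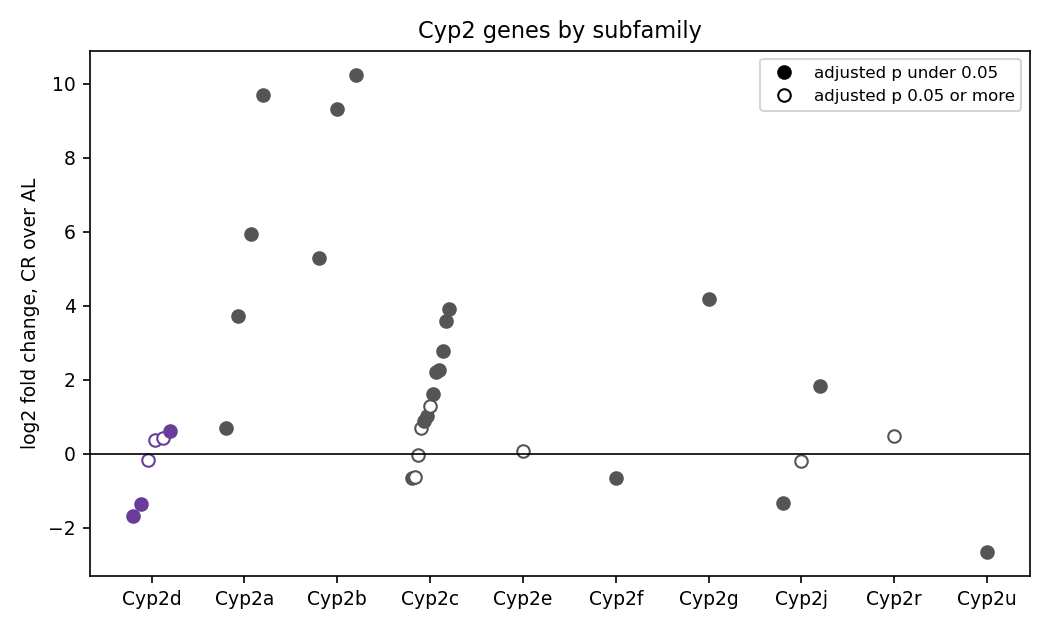
Log2 fold change, CR over AL, of each tested Cyp2 gene, grouped by subfamily with Cyp2d at the left, filled where the adjusted p was under 0.05. The 6 Cyp2d genes spanned -1.69 to 0.62, whereas the Cyp2a and Cyp2b genes all lay above 0, up to 10.25 for Cyp2b9. The Cyp2b genes, Cyp2a4 and Cyp2a22 passed the filter only through the CR livers.

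Genes whose profile over the 7 livers was most like that of 2 members were sought among 10855 tested protein-coding genes, as the root mean square difference of log2 values after each profile was centred on its own mean. For Cyp2d9 the nearest were Cad, an enzyme of pyrimidine synthesis (0.109), Fgg, the fibrinogen gamma chain (0.113), and Tmed3, a protein of early secretory transport (0.121). Each of these had its CR livers below its AL livers, as the choice by profile implies. Fgg had 1294 ± 179 FPKM in CR livers and 2940 ± 114 FPKM in AL livers. For Cyp2d26 the nearest were Homer2, a scaffold protein (0.0602), Zfp871, a zinc finger protein (0.0614), and Plekha8, a lipid transfer protein (0.0615). Like Cyp2d26, these had their highest AL value in AL replicate 3, with 2.92 FPKM against 2.17 and 2.22 FPKM in the other AL livers for Homer2.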

How the data were processed

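The deposited table gives FPKM per Ensembl gene on GRCm38, which the authors made from liver RNA-seq reads. CASAVA 2.19, HISAT2 2.0.5 and featureCounts 1.5.0-p3 are listed in the submitters' processing notes. The sources used here do not give the FPKM formula. FPKM times gene length was divided by the smallest non-zero product of each library, which was taken as a single read. The quotients were close to whole numbers in each library, so reads per gene could be listed. The unit stayed FPKM, so the main test was run on log2 values, and a model of the recovered reads served as an alternative. The filter asked for 0.5 FPKM or more in 3 or more of 7 libraries and left 12699 genes. Their log2(FPKM + 0.1) values were compared by the two-sided moderated test of limma 3.58.1 (R 4.3.3, with a variance trend and the robust option of statmod 1.5.0). P-values were adjusted over all of them by Benjamini-Hochberg, with a threshold of 0.05. The fit was tested on simulated data. Groups and replicates were taken from the sample titles, each library being a separate mouse, and no library was a duplicate of another.

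The members and the lists of partners, regulators, neighbours and sex-biased genes were chosen with earlier results of these data known. Named were all members, every other Cyp2d row, the 3 genes of smallest adjusted p and the most abundant gene of each list, the nearest neighbours and the 3 nearest profiles of Cyp2d9 and of the most abundant member. A few genes that this rule takes in are not reported here. The other genes named from the lists of regulators and Cyp2 genes were added after their values were seen. Coding identity and shared words were computed with Python 3.11.15 and Biopython 1.88 on GENCODE M21, in which 54409 of 54532 row IDs were found and all 8 members had the table's start and end. Promoters were RefSeq entries on GRCm38.p6. Protein identity was not computed. Alternatives were another pseudocount, filter, scaling or variance model, limma-voom on the recovered reads, a replicate block, and each library left out. Reads limit the precision, and limits from counts of 0 cover counting error only.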

Additional observations from a re-analysis of the deposited data

Results flagged for a closer look

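In the 33 named genes with at least 0.5 FPKM in some CR liver, the highest and lowest of the 4 CR livers were compared with the rest by Dixon's gap. A single gene passed the 95% critical value for 4 samples. Homer2, one of the genes whose profile was closest to Cyp2d26, had 3.79 FPKM in CR replicate 4, against 3.32 to 3.40 FPKM in the other CR livers, a gap of 0.831 of the group's range. Chance flags about 1 in 20 such groups.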

How the results depend on the processing

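The calls for Cyp2d9 and Cyp2d40 held under every alternative run, so that 2 members fell throughout. The count of members that rose, 1 in the fit reported, was 2 under quantile normalization, where Cyp2d26 passed, and 0 to 2 with a library left out (0 without AL replicate 2, 2 without AL replicate 3). Under limma with a replicate block it was 0, with 1 member up at an unadjusted p under 0.05, and 1 by limma-voom. Same-numbered CR and AL livers deviated with correlations of 0.031, -0.044 and -0.057, so the numbers did not pair the animals. The block gave 482 genes that rose and 508 that fell, against 1433 and 1291, with adjusted p of 0.0642 for Cyp2d22 and 0.0246 for Cyp2d9. With a library left out, 699 to 1523 genes rose and 629 to 1234 fell. Both counts were more than 1.5 times lower without CR replicate 2 (911 and 841), AL replicate 1 (799 and 686) or AL replicate 2 (699 and 629). Over all lists together, 34 genes rose and 37 fell (28 to 34 and 28 to 35 with a library left out), against 15 and 23 where at least 1 FPKM was asked of every library, a filter that removes genes near 0 in a group. Signs turned with a library left out for Cyp2d11 (-0.011 to 0.61), Hnf4a (-0.21 to 0.14) and Cyp2e1 (-0.035 to 0.20), of which none passed the test. The mean summed FPKM of the family without its most abundant member was 616 in CR livers and 980 in AL livers. Over 51 named genes, 699 of 800 values under alternatives kept direction and side of the threshold, 89 lost the call, 6 gained it and 6 changed sign. Depth limits Cyp2d11, Cyp2d12, Cyp2d34 and the rarer pseudogenes. Where a cause is not named, the cause was not tested.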
